A study of Mus musculus with 18 samples.

Results

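The genes described here are the mitochondrial ribosomal proteins, taken as every row whose symbol was Mrpl or Mrps followed by a number and at most 1 letter in all 4 deposited expression tables. There were 78 such genes among 32941 genes per table, 49 named for the large subunit (Mrpl) and 29 for the small subunit (Mrps). The mitochondrial ribosome is built from rRNAs encoded in mitochondrial DNA and from proteins encoded in the nucleus, made in the cytosol and imported. It translates the few mRNAs of the mitochondrial genome, all of which encode subunits of the respiratory chain and of ATP synthase. Part of its proteins descend from bacterial ribosomal proteins and part are found only in mitochondria, and dividing progenitors and growing neurons both depend on it for respiration. By known place in the mammalian ribosome, 30 members were conserved large subunit proteins, 21 were large subunit proteins particular to mitochondria, 16 were conserved small subunit proteins and 10 were small subunit proteins particular to mitochondria. In this grouping Mrps18a and Mrps30 were counted with the large subunit, where they sit despite their names. The remaining member, Mrps36, carries a ribosomal name but belongs to the oxoglutarate dehydrogenase complex. Unless a count is given by place, large and small subunit genes below are the 49 and 29 so named.

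RNA sequencing of 18 mouse libraries from a study of peroxisomes, ether lipids and cortical neurogenesis gave the values, as RPKM (reads scaled to exon length and to the size of the library). Wild-type (WT) brain was sequenced at embryonic days 11, 12, 13, 14, 16 and 18, named E11 to E18, with 1 library per stage, although the series' design text speaks of cortex in triplicate. Primary neural stem cells were sequenced as 2 WT libraries with a scrambled hairpin (NSC-Scramble) and 2 with PEX7-knockdown (NSC-Pex7sh). Libraries labelled brain were sequenced with PLAAT3-PEX11 overexpression and from WT controls as a first set (PLA1 against Ctrl1) and as a neuron set (Neuron-PLA against Neuron-ctrl), each group having 2 libraries. The labels give no age or promoter for the overexpression sets, do not say how neurons were obtained, and never state that replicates were separate animals or cultures. The p-values of the perturbations therefore reflect no more than library-to-library spread, which can be technical. Over the stages, with 1 library each, a p-value rests on scatter around a straight line over embryonic day, and that scatter includes any curvature.

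Read totals were 41501880 to 54373317 in the stages and 16147911 to 28104927 in the other libraries. A median of 2016 reads stood behind a member's value in a stage library, 448.5 in the neural stem cells, 680.5 in the first set and 965.5 in the neuron set. Of the targeted genes, Plaat3 and Pex7 were checked and followed the labels, while Pex11 genes were not checked here. Plaat3, the phospholipase named in the overexpression label, was at 0.413 and 0.431 RPKM in Ctrl1 and at 31.4 and 29.1 RPKM in PLA1. In Neuron-ctrl it was at 0.0699 and 0.230 RPKM, and in Neuron-PLA at 19.0 and 20.8 RPKM. Pex7, an import receptor for peroxisomal matrix proteins, was at 1.19 and 1.22 RPKM in NSC-Scramble and at 0.50 and 0.669 RPKM in NSC-Pex7sh. Summed RPKM of 8 neuronal markers was 981 at E11 and 2945 at E18, 783 to 1026 in the neural stem cells, 1049 to 1980 in the first set and 3447 to 3601 in the neuron set. In bulk samples fewer cells of a type and less RNA per cell cannot be told apart.

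Promoter stretches are shown for 5 members on which the results turn: Mrpl44 and Mrps14, which fell over the stages, and Mrpl34, Mrpl41 and Mrpl55, which fell in the first overexpression set. Each line gives the 90 bases before the start of the gene in RefSeq (GRCm38.p6, the assembly also called mm10), 5′ to 3′ on the strand of the gene. Capitals mark a match to the core of the binding motif of NRF1 (GCGCANGCG) or of the ETS factor GABPA (CCGGAAG) on either strand, the regulators best known for nuclear genes of mitochondria.
Mrpl44, chr1:79775928-79776017, plus strand: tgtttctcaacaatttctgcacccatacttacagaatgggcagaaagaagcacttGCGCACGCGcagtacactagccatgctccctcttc
Mrps14, chr1:160195125-160195214, plus strand: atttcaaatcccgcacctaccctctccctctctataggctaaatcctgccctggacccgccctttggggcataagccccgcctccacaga
Mrpl34, chr8:71464836-71464925, plus strand: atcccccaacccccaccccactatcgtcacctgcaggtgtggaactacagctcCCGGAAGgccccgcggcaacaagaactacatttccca
Mrpl41, chr2:24975099-24975188, minus strand: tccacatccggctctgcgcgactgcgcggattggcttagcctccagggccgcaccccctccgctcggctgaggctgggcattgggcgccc
Mrpl55, chr11:59202396-59202485, plus strand: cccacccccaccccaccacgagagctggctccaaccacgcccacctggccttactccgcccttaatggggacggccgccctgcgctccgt

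Mrpl44 carried the NRF1 core and Mrpl34 the ETS core, and the stretches of Mrps14, Mrpl41 and Mrpl55 carried neither. RefSeq's table held 300-base promoters (250 bases before to 50 after the start) for 69 of the 78 members; Mrpl4, Mrpl13, Mrpl15, Mrpl19, Mrpl38, Mrpl54, Mrps28, Mrps34 and Mrps35 had none. In these windows, searched on both strands, 26 members (37.7%) held the ETS core, 16 (23.2%) the NRF1 core and 8 (11.6%) the YY1 motif AAGATGGCG. Among the other genes that passed the expression filter over the stages the shares were 20.4%, 15.8% and 3.68%, and among all 32851 promoters of the table they were 8.86%, 6.25% and 1.40%. The GC box GGGCGG stood in 49.3% of the members and in 70.7% of those other genes, and TATAAA in 7.25% and 8.05%. A gene started on the opposite strand within 1000 bases of the start of 33 members (42.3%), against 1888 of 11382 other tested protein-coding genes (16.6%). One such pair joins a member of each subunit, Mrps11 and Mrpl46, whose exons overlap. Over the stages, in the test described further on, the median slope was -0.05 per day for the 16 members with the NRF1 core, of which 4 fell, and -0.06 for the 53 without, of which 16 fell. With the ETS core it was -0.05 for 26 members, of which 4 fell, and without it -0.07 for 43 members, of which 16 fell.

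All 78 members were expressed in every stage, and their levels spread widely. Mrpl34, a short protein of the large subunit known from bacteria, had the highest mean over the stages, with 100.2 RPKM at E11, 72.4 at E12, 70.6 at E13, 68.3 at E14, 75.9 at E16 and 65.4 at E18. Mrps10, a conserved protein of the small subunit, had the lowest, with 2.84, 2.05, 3.23, 2.56, 1.95 and 1.86 RPKM. The median of the members was 27.0 RPKM at E11 and 16.1 RPKM at E18. Large subunit genes stood above small subunit genes in each stage, with a ratio of medians between 1.31 and 1.58. In the neural stem cells that ratio was 1.29 to 1.49, and in the first and neuron sets it was 0.876 to 1.21 and 0.876 to 1.13.

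The stalk of the large subunit, which recruits translation factors, is formed by Mrpl10 and copies of Mrpl12. Mrpl12 stood at 91.6 RPKM at E11 and at 46.2 to 52.5 RPKM in the 5 later stages. Mrpl10 stood at 36.7 RPKM at E11 and at 23.2 to 30.2 RPKM later. The 3 Mrps18 paralogs, which take different places in the ribosome, differed in level, Mrps18c being at 36.9 RPKM at E11 and 23.2 to 26.7 RPKM later, Mrps18a at 13.3 RPKM and 9.61 to 13.1 RPKM, and Mrps18b at 11.9 RPKM and 8.58 to 9.78 RPKM. Mrpl58, a peptidyl-tRNA hydrolase that became part of the large subunit, was at 27.2 RPKM at E11 and 15.0 to 18.5 RPKM later, and Mrps30 at 7.27 RPKM and 4.33 to 5.95 RPKM. Mrps36 was at 18.1 RPKM at E11, 11.5 RPKM at E16 and 15.7 RPKM at E18. Each of these genes was at its highest at E11, but of them only Mrpl10 passed the test for a slope described next.

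Over the stages 71 of 78 members had their highest value at E11, while 23 (17 of 49 large, 6 of 29 small) passed the test in the downward direction, 0 rose and 55 did not pass. The test was the slope of log2(RPKM + 1) on embryonic day in limma, adjusted by Benjamini-Hochberg over the 12921 genes that averaged 1 RPKM or more, at an adjusted p under 0.05. Among all genes tested 25.5% fell and 19.6% rose, so that the 29.5% of members that fell was near the share of genes in general. At an unadjusted p under 0.05, 30 members fell and 0 rose, against 3942 falling and 2964 rising of all genes tested. Limma-voom on reads recovered from the RPKM values called 22 members (28.2%) falling and 0 rising, against 25.6% and 19.9% of all genes. The 71 members highest at E11 were 91.0%, against 32.4% of all genes tested, and 40 members had their lowest value at E18, against 43.2% of all genes tested. As a percentage of its own E11 level, a member's E18 level had a median of 64.8%, ranging from 37.0% for Mrpl39 to 109% for Mrpl23.

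**Figure D1:**
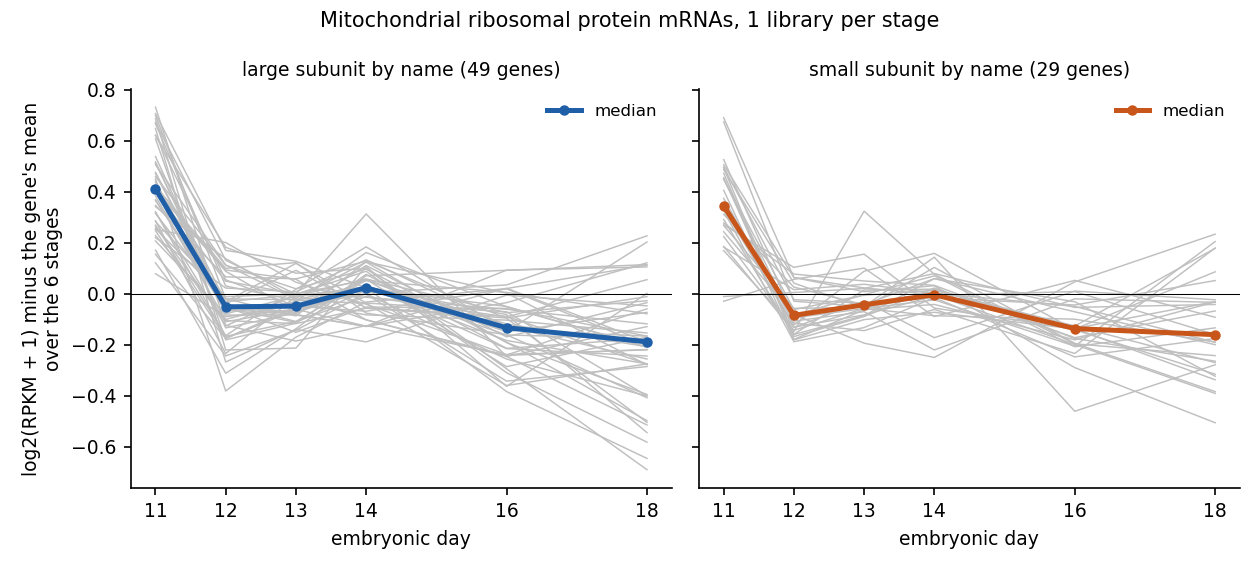
Level of each mitochondrial ribosomal protein mRNA by embryonic day, as log2(RPKM + 1) minus the gene's mean over the 6 stages (1 library per stage). Grey lines are single genes named for the large subunit (left) and small subunit (right), and the coloured line is their median. The drop from E11 to E12, in 76 of 78 genes, is the largest of the 5 steps in both panels.

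Mrpl39, a large subunit protein that resembles part of a tRNA synthetase (ENSMUSG00000022889, chromosome 16, 84717576 to 84735742, minus strand, mm10), fell most, from 29.1 RPKM at E11 through 19.8, 19.2, 17.8 and 13.1 to 10.8 RPKM at E18. Its slope was -0.17 per day (SE 0.02, limma, adjusted p = 0.0018). Mrpl47, a conserved protein near the exit of the nascent chain, stood at 24.8, 18.0, 16.8, 17.0, 12.7 and 9.40 RPKM in the same order (slope -0.17, SE 0.02, limma, adjusted p = 0.0018). Mrpl13, a conserved large subunit protein, stood at 13.0, 8.60, 7.75, 8.31, 6.07 and 4.85 RPKM (slope -0.15, SE 0.03, limma, adjusted p = 0.0046). Mrps14, a conserved protein of the small subunit's head, stood at 17.1, 10.7, 10.2, 10.4, 8.15 and 6.88 RPKM (slope -0.14, SE 0.03, limma, adjusted p = 0.0084). In all of these the first library was the highest, E12 to E14 lay close together, and E16 and E18 were lower again.

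The other members with the smallest adjusted p were Mrpl18, which has been linked to import of a cytosolic rRNA, Mrpl44, which has the fold of a ribonuclease, and the conserved large subunit proteins Mrpl1 and Mrpl3. Their levels at E18 were 50.7%, 46.1%, 48.5% and 57.2% of those at E11, with slopes of -0.12, -0.12, -0.10 and -0.10 per day. By place, 11 of 30 conserved and 6 of 21 mitochondria-particular large subunit genes fell, as did 4 of 16 conserved and 2 of 10 mitochondria-particular small subunit genes. The 4 medians of the slopes lay between -0.06 and -0.05 per day, and that of all genes tested was -0.02. Levels at E18 differed among the members: 9 were under 50% of their E11 level, 46 were at 50 to 75%, 19 at 75 to 100%, and 4 (Mrps26, Mrpl20, Mrpl48 and Mrpl23, none of which passed the test) were above their E11 level.

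The course had 3 phases. From E11 to E12, 76 of 78 members were lower, with a median step of -0.45, where all genes tested had 0.04. This step was not particular to the members, since other gene lists given further on had it too. Between E12 and E14 the median changed by 0.06, and 31 members were lower at E14 than at E12. From E14 to E16, 65 members were lower, with a median of -0.14 against -0.01 for all genes tested, and from E16 to E18, 45 were lower, with a median of -0.04 against -0.10. From E12 to E18 the median change of the members (-0.11) was close to that of all genes tested (-0.12).

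The count of 23 rested in part on single libraries. Without E11 it was 13, all among the 23, and Mrpl23 and Mrpl52 then rose (slopes 0.07 and 0.07); without E16 it was 13, without E18 it was 7, and with each library scaled by the median of its gene ratios it was 14. The shares of members falling in these 4 settings were 16.7%, 16.7%, 8.97% and 17.9%. Those of all genes in the same settings were higher, at 23.5%, 22.5%, 9.91% and 21%. In every other setting run the share of members was the higher one, from 23.1% against 21.8% without E13 to 32.1% against 21.9% without E12. None of these differences was tested. Summed RPKM of 7 erythroid markers was 6749 at E11, 1479 at E12 and 253 at E18, that of 8 mitosis markers 479, 353 and 25.7, that of 8 radial glia markers 1026, 834 and 645, and that of 4 choroid plexus markers 62.9, 1.95 and 108, with none of these markers at 0 in every stage. Of the 8 radial glia markers 6 fell and 1 rose in the slope test. Their median change from E11 to E18 was -2.59 on the log2 scale, with 6 lower. Most of the choroid plexus sum at E11 and E18 was Ttr, at 57.6 and 107 RPKM. The part of these cell populations in the members' lower levels after E11 was not tested.

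Other genes of mitochondrial gene expression were counted in the same limma fit. Of 15 translation and release factors 3 fell and 0 rose, among them Tsfm, the partner of the elongation factor Tufm, from 14.6 RPKM at E11 to 5.92 RPKM at E18. Of 29 genes listed for assembly of the mitochondrial ribosome 9 fell, including Malsu1 (slope -0.26), which keeps the subunits apart during maturation, and Gtpbp10 (slope -0.14). Gtpbp6 of that list rose (slope 0.12). Ptcd3 was the 1 of 5 mitochondrial ribosomal proteins with other names that fell. Of 22 genes listed with the aminoacyl-tRNA synthetases of mitochondria 6 fell, Qrsl1 among them. This synthetase list includes Qrsl1, Gatb and Gatc, which are not synthetases. Of 24 genes for transcription and RNA of the mitochondrial genome 13 fell. Among these were Grsf1, an RNA granule protein (slope -0.21), and Tfam, which packs mitochondrial DNA (slope -0.13). Of 8 regulators of nuclear mitochondrial genes 6 fell and 1 rose, Nrf1 (slope -0.14) and the GABP subunit Gabpb1 (slope -0.13) being among those that fell. The 13 mitochondrially encoded mRNAs, the products of which the ribosome makes, went the other way, with 5 rising and 0 falling and a median slope of 0.07. Nuclear subunits of complex I had 1 of 40 fall and 0 rise. Cytosolic ribosomal proteins had 17 of 86 fall and 0 rise, with 78 of 86 highest at E11. From E11 to E12 all 40 complex I subunits were lower (median step -0.40), as were 83 of 86 cytosolic ribosomal proteins (median step -0.61).

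Levels of the members differed between the 4 tables, which were normalised separately, and so did those of genes in general. Whether the tables were counted with the same strand and annotation settings is not given in the sources used here, so a level set across tables may also differ through the counting, which was not tested. Against the mean over the stages, the log2 ratio of the Ctrl1 mean had an SD of 1.45 over the members and 1.55 over all genes averaging 1 RPKM or more, and 5.13% and 6.62% of them were under 1/8 of that mean. The order of the 78 members by mean RPKM was similar in the first and neuron sets (Spearman's rho 0.97), less so between stages and neural stem cells (0.78), and least between stages and first set (0.44); members of 1 table share its libraries. Mrpl53 was at 47.7 to 60.4 RPKM in the stages and is listed at 0 in all 12 other libraries, as were 228 of the 8208 genes averaging 5 RPKM or more over the stages, of which Mrpl53 was the only member. Mrps34, a small subunit protein particular to mitochondria, was at 25.6 to 35.3 RPKM in the stages, 14.3 to 15.7 RPKM in the neural stem cells and 0.0600 to 0.498 RPKM in the 8 overexpression-set libraries, from 2 to 24 reads. Mrpl20, Mrpl52, Mrpl54 and Mrps25, chosen after their values were seen, were also under 12.5% of their stage mean in the first set, where 11 members were above 200% of it, among them Mrpl1 and Mrpl10.

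**Figure D2:**
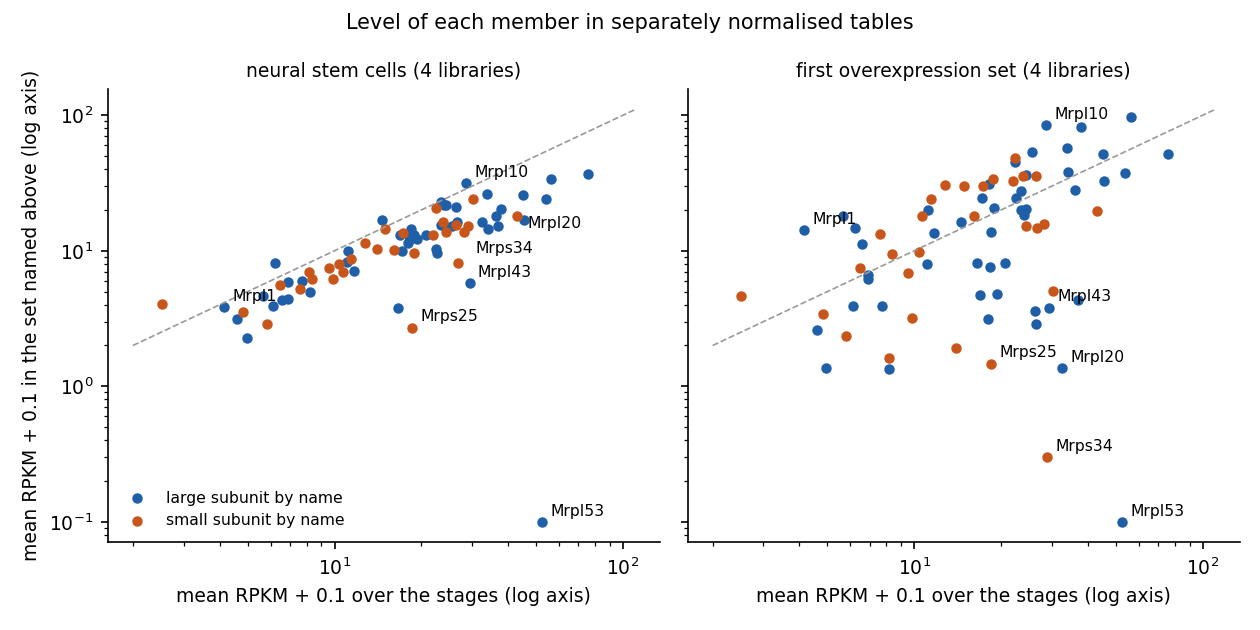
Mean RPKM + 0.1 of each member over the 6 stages (horizontal, log axis) against its mean in the 4 neural stem cell libraries (left) and the 4 libraries of the first overexpression set (right; vertical, log axis); the dashed line marks equal values. Mrpl53 lies at the bottom of both panels because it is listed at 0, and members scatter farther from the line in the right panel.

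Counting can be affected by overlapping genes, and whether reads were counted by strand is not given in the sources used here. Exons of another gene on the same strand overlapped 4 members and on the opposite strand 20 members, which is 5.13% and 25.6% of them, against 6.78% and 22.6% of all genes averaging 1 RPKM or more over the stages. The overlap covered over 20% of the exons of 6 members, Mrpl19, Mrpl24, Mrpl43, Mrpl47, Mrps25 and Mrps34, and was widest in Mrps25 (69.8%, with Nr2c2) and Mrps34 (63.4%, with Mapk8ip3, and 37.0% on its own strand, with Nme3). Levels of these 6 genes are uncertain where the reads of both partners cannot be told apart, as are those of Mrpl23, Mrpl48 and Mrps36, after which 5 pseudogenes are named in the annotation.

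Knockdown of Pex7 in neural stem cells asked which mRNAs differ when this import receptor is lowered, and no mitochondrial ribosomal protein gene passed the test. Of 77 members tested with limma 0 rose and 0 fell, as 0% of all 12482 genes did in either direction, and limma-voom also called 0 members. At an unadjusted p under 0.05 there was 1 member, against 184 of all genes tested. The median change was -0.02 (SD over members 0.09), with -0.02 for large and -0.01 for small subunit genes and -0.00 for all genes tested. Both Pex7sh libraries were above both scramble libraries in 8 members and below them in 14, where 10.6% and 11.9% of all genes were. The 2 scramble libraries stood apart in cell markers, with summed RPKM of 137.8 and 248.8 for 8 mitosis markers, 216 and 428 for 6 oligodendrocyte lineage markers and 28.7 and 189.6 for 4 choroid plexus markers as the lower and the higher of the pair. In the Pex7sh libraries these sums were 178 to 198, 321 to 322 and 65.9 to 159.8, and no marker of these lists was at 0 in both libraries of a group. Without scramble library 1 the median change of the members was 0.02 and without scramble library 2 it was -0.06. The part of these cell populations in the members' values was not tested.

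The 3 members with the smallest p, none of which passed, were Mrps24, Mrps18a and Mrps36. Mrps24, a conserved protein at the entry of the mRNA channel, was at 15.1 and 15.0 RPKM in NSC-Scramble and at 12.7 and 12.1 RPKM in NSC-Pex7sh, without overlap (change -0.26, SE 0.07, limma, adjusted p = 1.0). Mrps18a was at 8.08 and 8.03 RPKM against 8.94 and 9.42 RPKM, and Mrps36 at 9.07 and 9.79 RPKM against 11.4 and 10.4 RPKM. The median 95% interval of a member's change reached 0.24 to either side, and the intervals of 73 of 77 members lay within 0.5 on the log2 scale. Changes larger than that are outside the interval for these 73 genes. None of the 15 translation factors, 28 genes of the ribosome assembly list or 22 genes of the synthetase list tested passed either.

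PLAAT3-PEX11 overexpression was compared with WT in the first set to find which mRNAs differ, and 10 of 76 members passed the test, 7 falling and 3 rising (limma, 11623 genes). Of all genes tested 13.2% fell and 16.3% rose. The members that fell were the large subunit proteins Mrpl34, Mrpl57, Mrpl41, Mrpl55 and Mrpl11 and the small subunit proteins Mrps23 and Mrps33, and those that rose were Mrpl38, Mrpl2 and Mrps7. The median change of the members was -0.01 (SD over members 0.24), against 0.06 for all genes tested, with 38 members above 0 and 38 below. Both PLA1 libraries were above both Ctrl1 libraries in 17 members and below them in 20, where 39.6% and 29.7% of all genes were.

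**Figure D3:**
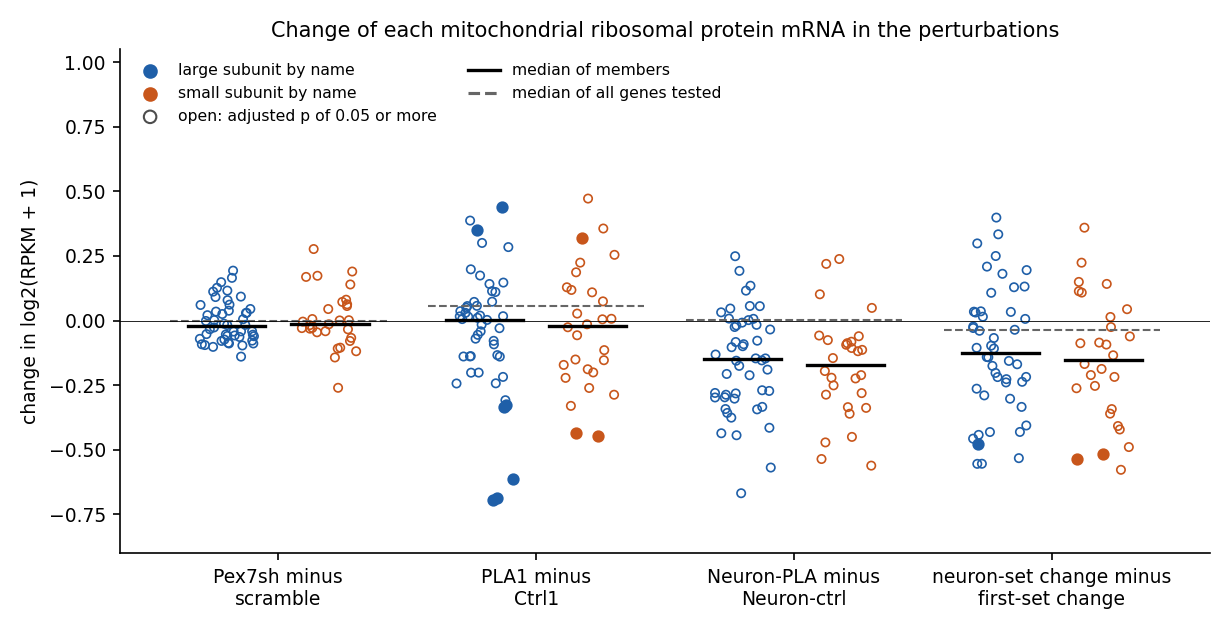
Change in log2(RPKM + 1) of each member in the 3 perturbations and in the difference between both overexpression sets; blue points are large and orange points small subunit genes by name, filled points passed the test, black bars are medians of members and dashed bars medians of all genes tested. Filled points occur in the first set (10 members) and in the difference between the sets (3 members).

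Mrpl34 (ENSMUSG00000034880, chromosome 8, 71464959 to 71465747, plus strand, mm10), the promoter of which carries the ETS core shown above, was at 73.0 and 56.2 RPKM in Ctrl1 and at 39.3 and 39.0 RPKM in PLA1. Its change was -0.70 (SE 0.12, limma, adjusted p = 0.0067), the largest of any member. Mrpl57, a short large subunit protein particular to mitochondria, was at 10.3 and 9.52 RPKM in Ctrl1 and at 5.53 and 6.04 RPKM in PLA1 (change -0.69, SE 0.12, limma, adjusted p = 0.0066). Mrpl41, also particular to mitochondria (chromosome 2, 24974117 to 24975098, minus strand), was at 65.2 and 59.2 RPKM against 42.9 and 37.8 RPKM (change -0.61, SE 0.09, limma, adjusted p = 0.0041). In these 3 genes the PLA1 means were 0.606, 0.583 and 0.648 of the Ctrl1 means, and the groups did not overlap.

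Smaller falls were found in Mrps23 (-0.45), Mrps33 (-0.44), Mrpl55 (-0.33) and Mrpl11 (-0.33), the last a conserved protein at the base of the stalk. Mrpl11 was at 28.7 and 26.2 RPKM in Ctrl1 and at 22.5 and 20.8 RPKM in PLA1, and Mrpl55 at 36.9 and 32.8 RPKM and 27.6 and 27.1 RPKM. Mrpl38, a large subunit protein particular to mitochondria, was at 15.0 and 15.5 RPKM in Ctrl1 and at 22.7 and 19.5 RPKM in PLA1 (change 0.44, SE 0.11, limma, adjusted p = 0.021). Mrpl2, a conserved protein close to the peptidyl transferase centre, rose from 71.8 and 71.8 RPKM to 91.0 and 92.7 RPKM (change 0.35, SE 0.07, limma, adjusted p = 0.011). Mrps7, a conserved protein of the small subunit's head, was at 31.5 and 31.1 RPKM against 42.3 and 36.6 RPKM (change 0.32, SE 0.10, limma, adjusted p = 0.042). Mrps30 had a larger change than these (0.47, from 1.49 and 1.95 RPKM to 2.79 and 2.73 RPKM), which did not pass (limma, adjusted p = 0.075). In both stalk genes the groups overlapped, Mrpl10 being at 81.6 and 86.2 RPKM against 83.1 and 86.7 RPKM and Mrpl12 at 105 and 95.1 RPKM against 101 and 89.2 RPKM, and neither passed the test.

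**Figure D4:**
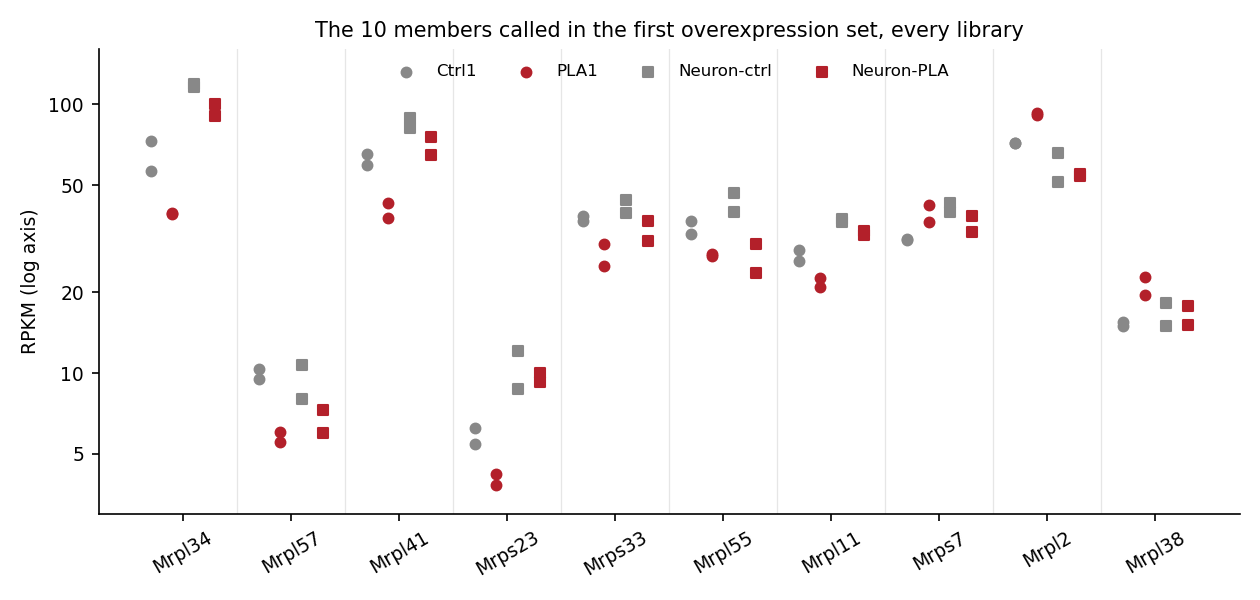
RPKM (log axis) of the 10 members called in the first overexpression set in each of the 8 overexpression-set libraries, with control libraries in grey and overexpression libraries in red, the first set as circles and the neuron set as squares. In the first set the red circles lie on 1 side of the grey circles for each gene, from 39.3 and 39.0 RPKM against 73.0 and 56.2 RPKM in Mrpl34 to 22.7 and 19.5 RPKM against 15.0 and 15.5 RPKM in Mrpl38.

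Of the 7 members that fell 3 had under 1500 bases of merged exon, Mrpl34 with 607, Mrpl41 with 888 and Mrpl55 with 1027. The 19 members under 1500 bases had a median change of -0.19 and the 31 members of 3000 bases or more one of 0.01, where all genes tested had -0.11 and 0.10 in the same classes. After a trend on exon length and GC content was removed, 5 members fell and 4 rose, 8 of them among the 10. With libraries scaled by median ratios 12 fell and 2 rose, and with upper-quartile scaling 11 fell and 2 rose. Shares of all genes called in these settings and those that follow are not given here, so no shift particular to members is shown. Without Ctrl1 library 1 only Mrpl41 and Mrpl34 passed, both falling; 3 fell and 3 rose without PLA1 library 2, 6 fell and 1 rose without Ctrl1 library 2, 7 fell and 1 rose without PLA1 library 1, and 2 fell and 1 rose with no filter on low values.

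In the same comparison the mitochondrially encoded mRNAs fell in 10 of 12 cases (median -1.06), ND4 by 1.37 and ATP6 by 1.29 on the log2 scale. Of 81 cytosolic ribosomal proteins 36 fell and 2 rose (median -0.42), and of 38 nuclear complex I subunits 11 fell and 1 rose (median -0.18), among them Ndufa4 (-0.76), which is now placed with complex IV. Mitochondrial translation factors had 0 of 15 called. Of 28 genes listed for ribosome assembly, Ddx28 (-0.42) and Rbfa (-0.47), which act on the large and the small subunit, fell. Rexo2 (0.44), a nuclease of short RNAs counted in that list, rose. Of 22 genes of the synthetase list 0 fell and 4 rose, among them Gars (0.57), which also serves the cytosol, Tars2 (0.38) and Aars2 (0.44). Of the regulators Pprc1 (0.78) and Ppargc1a (0.79), coactivators of mitochondrial genes, rose. Summed RPKM of 8 neuronal markers was 1935 to 1980 in Ctrl1 and 1049 to 1142 in PLA1, that of 8 mitosis markers 423 to 428 and 642 to 644, and that of 8 microglia markers 430 to 461 and 187 to 202, with none of these markers at 0 in both libraries of a group. That of 6 astrocyte markers was 210.2 to 212 and 80.1 to 85.2, with Gfap at 0 in PLA1. Most of this sum was Apoe, at 205 and 204 RPKM in Ctrl1 and at 70.9 and 76.3 RPKM in PLA1. Gja1 was higher in PLA1, at 5.37 and 5.24 RPKM against 3.19 and 3.23 RPKM. Of the 3 astrocyte markers tested 1 rose and 1 fell. The part of these cell populations in the members' changes was not tested.

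In the neuron set no member passed, while most lay below their control. Of 76 members tested with limma (11179 genes) 0 rose and 0 fell, where 0.376% and 0.501% of all genes did. The median change was -0.15 (SD over members 0.20) against 0.00 for all genes tested, and 61 of 76 members were below 0. At an unadjusted p under 0.05, 22 members were lower and 0 higher, against 1095 lower and 881 higher of all genes, and limma-voom called 0 members. Both Neuron-PLA libraries were below both Neuron-ctrl libraries in 37 members and above them in 4, where 25.3% and 24.7% of all genes were.

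The 3 members with the smallest p, all named as not passing, were Mrpl55, Mrpl12 and Mrpl27. Mrpl55, a conserved large subunit protein, was at 39.7 and 46.7 RPKM in Neuron-ctrl and at 23.5 and 30.3 RPKM in Neuron-PLA (change -0.67, SE 0.14, limma, adjusted p = 0.080, with 0.041 to 0.34 over the alternatives). The stalk gene Mrpl12 was at 117 and 116 RPKM against 94.8 and 94.6 RPKM (change -0.30, SE 0.07, limma, adjusted p = 0.10), and Mrpl27, another conserved large subunit protein, at 85.8 and 88.2 RPKM against 65.1 and 71.7 RPKM (change -0.34, SE 0.08, limma, adjusted p = 0.11). In these 3 genes the groups did not overlap. Mrpl10, the other stalk gene, was at 53.1 and 56.3 RPKM against 56.4 and 55.4 RPKM, with overlap. The genes that led in the first set, Mrpl34, Mrpl57 and Mrpl41, had changes of -0.30, -0.44 and -0.28 here, none passing.

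By place, all 9 small subunit genes particular to mitochondria that were tested were below 0 (median -0.21), as were 25 of 30 conserved large subunit genes (median -0.17), 13 of 16 conserved small subunit genes (median -0.13) and 13 of 20 large subunit genes particular to mitochondria (median -0.10). Cytosolic ribosomal proteins were below 0 in 77 of 82 cases (median -0.36; 1 rose, 0 fell) and nuclear complex I subunits in 38 of 40 (median -0.38; 0 rose, 1 fell). The 19 members under 1500 bases of exon had a median of -0.30 and the 31 of 3000 bases or more one of -0.12, where all genes tested had -0.19 and 0.04. Leaving out Neuron-PLA library 2 gave 2 called members, and a filter at a mean of 5 RPKM gave 1, Mrpl55. Summed RPKM of 8 radial glia markers was 309 to 318 in Neuron-ctrl and 162 to 201 in Neuron-PLA, that of 8 mitosis markers 85.9 to 90.3 and 61.0 to 65.4 and that of 8 microglia markers 127 to 130 and 71.9 to 81.6. That of 6 endothelial markers was 19.5 to 20.1 and 1.29 to 1.70, with Cdh5 and Tek at 0 in Neuron-PLA. Most of this sum was Cldn5, at 18.0 and 17.4 RPKM in Neuron-ctrl and at 1.65 and 1.26 RPKM in Neuron-PLA. Neuronal markers were at 3505 to 3542 and 3447 to 3601. The part of these cell populations was not tested.

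The 2 overexpression sets, which share no libraries, were compared by the difference of their changes in a limma fit over 11705 genes. In 3 of 76 members the change was lower in the neuron set than in the first set, and in 0 it was higher. Of all genes tested 6.19% were lower and 5.48% higher. At an unadjusted p under 0.05 it was lower in 11 members and higher in 2, against 1777 lower and 1447 higher of all 11705 genes. Mrps18a was at 21.8 and 22.1 RPKM in Ctrl1, 27.0 and 25.7 RPKM in PLA1, 35.9 and 36.2 RPKM in Neuron-ctrl and 29.6 and 29.4 RPKM in Neuron-PLA, so that both overexpression libraries lay above their controls in 1 set and below them in the other (difference -0.54, SE 0.12, limma, adjusted p = 0.018). Mrpl28, a conserved large subunit protein, was at 35.7 and 34.5, 38.1 and 41.5, 68.2 and 70.7, and 56.8 and 55.4 RPKM in the same order (difference -0.48, SE 0.11, limma, adjusted p = 0.023). Mrps7 was at 31.5 and 31.1, 42.3 and 36.6, 42.8 and 39.7, and 33.5 and 38.4 RPKM (difference -0.51, SE 0.14, limma, adjusted p = 0.048). The groups did not overlap within either set for these 3 genes.

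**Figure D5:**
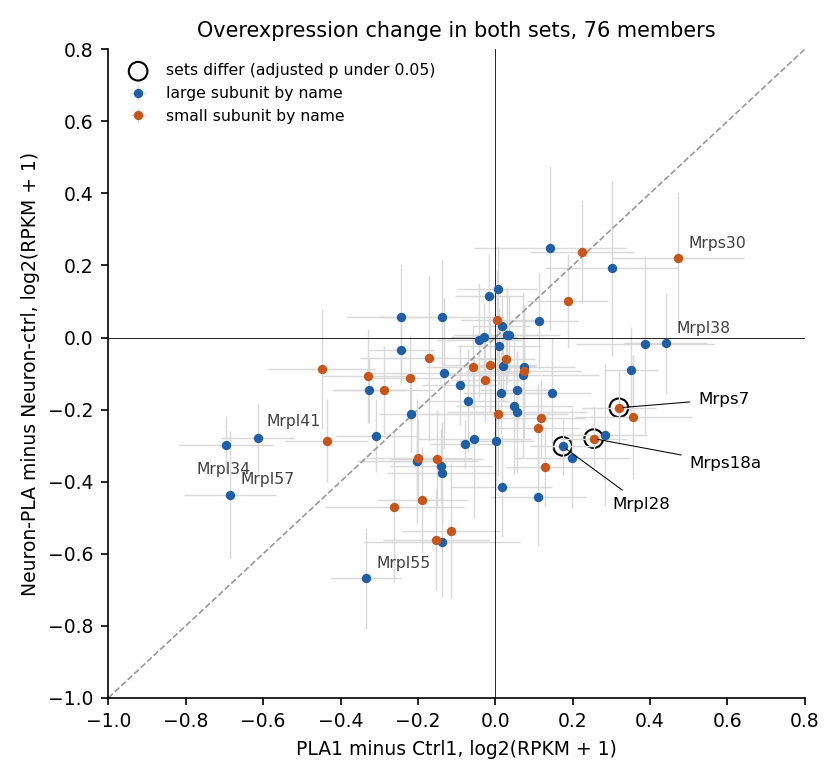
Change in log2(RPKM + 1) under overexpression in the first set (horizontal) and in the neuron set (vertical) for the 76 members tested, with standard errors as grey bars and equal changes on the dashed line. The circled genes Mrps18a, Mrps7 and Mrpl28, for which the sets differed, lie to the right of 0 and below 0.

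Of the 76 members, 34 were below control in both sets, 11 above in both, 27 above in the first and below in the neuron set, and 4 the reverse. The median difference was -0.14, against -0.04 for all genes tested. The 10 genes called in the first set had differences from -0.51 (Mrps7) to 0.40 (Mrpl34), and apart from Mrps7 none of these passed. The 3 calls rested on few libraries: without Ctrl1 library 1, without Ctrl1 library 2 or without Neuron-ctrl library 2 none of them passed, and limma-voom on recovered reads called Mrps18a alone. Mitochondrially encoded mRNAs had 8 of 13 differences called, all higher in the neuron set (median 0.95). The synthetase list had 2 of 22 called, both lower.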

How the data were processed

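RNA from brain and from primary neural stem cells was sequenced after Trizol extraction, per the labels' protocols. Reads were processed with STAR 2.7.9a, HTSeq 0.6.0 and mm10, per the submitters' processing notes; counting options are not given in the sources used here. The authors deposited 4 tables of RPKM, a unit recognised from the values: multiplied by merged exon length (GENCODE M21) and a read total they gave whole reads, within 0.01, for 97.5% to 97.8% of nonzero values. The deposited RPKM values were put on the log2(RPKM + 1) scale, which understates changes of low genes. Genes averaging 1 RPKM or more were tested by limma-trend (limma 3.58.1 under R 4.3.3), and p-values were adjusted over all of them by Benjamini-Hochberg. The slope used 6 stages, each perturbation its own 4 libraries, and the difference between sets 8. Mrpl53 was below the filter in the perturbations and Mrps34 in the overexpression sets. Fits were tested on simulated data. Alternatives were another pseudocount (0.1), no filter or a mean of 5 RPKM, other scalings, removal of a length and GC trend, limma-voom on recovered reads, each library left out, stage order and a replicate block. Members and gene lists were chosen with earlier results of these data known. Named per comparison were up to 8 called members per direction by adjusted p and 3 by size, or else the 3 with the smallest p, and the highest and lowest member, Mrpl10, Mrpl12, the Mrps18 paralogs, Mrps30, Mrps36 and Mrpl58 always, with up to 3 genes per list.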

Additional observations from a re-analysis of the deposited data

Results flagged for a closer look

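For 3 of 76 members the effect of PLAAT3-PEX11 overexpression differed between the first set and the neuron set by the test of that difference in limma. All 3 changes were lower in the neuron set. Of all genes tested 6.19% were lower and 5.48% higher, so that such calls were not more frequent among the members. The 3 calls rested on few libraries, as given above, and limma-voom on recovered reads called 1 of them. The neuron-set change minus the first-set change was -0.51 for Mrps7, -0.54 for Mrps18a and -0.48 for Mrpl28 on the log2 scale. In each of them both overexpression libraries were above both controls in the first set and below both in the neuron set.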

How the results depend on the processing

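Over the stages the count of members that fell was 23, and 7 to 25 with 1 stage left out (lowest without E18), with 0 to 2 rising (2 without E11); median-ratio scaling gave 14 falling, and the other settings gave 20 to 24. For the perturbations and the difference between the sets, shares of all genes called under each alternative are not given here. In the first set 7 fell and 3 rose. Median-ratio scaling gave 12 falling, upper-quartile scaling 11, and no filter 2 falling and 1 rising; leaving out 1 library gave 2 to 7 falling and 0 to 3 rising, lowest without Ctrl1 library 1. In the neuron set 0 members were called; a mean of at least 5 RPKM gave 1, and leaving out 1 library gave 0 to 2. For the difference between the sets 3 were lower; limma-voom gave 1, and leaving out 1 library gave 0 to 4 lower and 0 to 1 higher. The knockdown gave 0 under every setting run. None of the members refitted under each setting, those called or with the smallest p in a comparison, changed direction, while the medians of all members in the knockdown and in the first set, both close to 0, changed sign under some settings.

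Same-numbered libraries of treated and control groups shared only a number, with correlations of their deviations of 0.010, 0.099 and 0.047 over 2 pairs each. With a replicate block 0 members were called in the knockdown, 10 fell and 3 rose in the first set, 0 were called in the neuron set, and 2 were lower between sets. Each perturbation rests on 2 libraries per group and each stage on 1, which limits all comparisons; depth limits Mrps34 in the overexpression sets, at 2 to 24 reads, where no fold is given.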
